A study of Homo sapiens with 12 samples.

Results

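Genes of the extracellular matrix and of its turnover were followed across the 4 treatments of A2058 cells. They were all probe sets whose gene symbol begins or reads as a collagen, laminin, fibronectin, integrin, matrix metalloproteinase (MMP), ADAMTS, tissue inhibitor of metalloproteinases (TIMP), serpin, thrombospondin, lysyl oxidase, fibrillin, fibulin or SPARC gene. The rule found 57 probe sets of 56 genes among 14580 genes measured. The brightest probe set was used for MMP25, which had 2. The matched genes did not cover every class in that list. They held 1 collagen chain gene (COL26A1) and 0 laminin, 0 integrin subunit and 0 serpin genes, so those classes were not analysed here. The members were 19 MMP genes, 8 genes of fibronectin, fibrillins and fibulins, 5 ADAMTS-like genes, 5 thrombospondin and SPARC family genes, 4 lysyl oxidase genes, 4 TIMP genes, 3 genes of integrin-binding proteins, COL26A1, LOXHD1 and 6 antisense RNAs or pseudogenes. LOXHD1 and the integrin-binding genes were drawn in by their symbols and encode no matrix component.

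A2058 is an established human melanoma line, grown in serum-containing medium. Cells were exposed for 24 h to DMSO, the solvent, to 100 nM dabrafenib with 10 nM trametinib (DT), to 1 µM entinostat (E), or to all 3 drugs (DTE), with 3 Affymetrix arrays per group. Dabrafenib inhibits RAF kinases, trametinib inhibits MEK, and entinostat inhibits class I histone deacetylases. The titles name biological and the series design technical replicates, so the error behind each p-value is that between arrays and may be technical.

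The extracellular matrix is the secreted scaffold around cells. Fibronectin and fibrillins form its fibrils, lysyl oxidases crosslink collagen and elastin, thrombospondins bind matrix and cell receptors, MMPs cleave matrix proteins, and TIMPs block MMPs. Several MMP genes are textbook targets of AP-1, the FOS and JUN transcription factor family that ERK signalling activates. In melanoma, matrix secretion and cleavage are studied for their part in invasion and in drug tolerance.

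Promoter sequences from RefSeq (GRCh38.p14) matched 42 of the 56 members by symbol. They are shown here for 4 members as the 150 bases before the annotated start. Among these 42, MMP10 and MMP20 were the members with a match to the AP-1 motif TGANTCA. MMP8 is their neighbour in the same gene cluster, and THBS2 was among the genes that fell most. The promoters of MMP1, MMP12, MMP13 and MMP16 were not among the 42, so they were not searched for either motif. Capitals mark matches to TGANTCA or to the TATA motif TATAAA on either strand. No match to one motif overlapped a match to the other in these 4 stretches. The coordinates are chr11:102780629-102780778, minus strand for MMP10, chr11:102625333-102625482, minus strand for MMP20, chr11:102724955-102725104, minus strand for MMP8 and chr6:169253847-169253996, minus strand for THBS2.
MMP10: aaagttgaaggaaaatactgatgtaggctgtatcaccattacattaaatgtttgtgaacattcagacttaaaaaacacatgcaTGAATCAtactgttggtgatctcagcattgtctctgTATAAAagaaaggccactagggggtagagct
MMP20: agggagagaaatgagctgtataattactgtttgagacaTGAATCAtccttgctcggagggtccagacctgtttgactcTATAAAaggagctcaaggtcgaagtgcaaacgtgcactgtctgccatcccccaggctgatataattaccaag
MMP8: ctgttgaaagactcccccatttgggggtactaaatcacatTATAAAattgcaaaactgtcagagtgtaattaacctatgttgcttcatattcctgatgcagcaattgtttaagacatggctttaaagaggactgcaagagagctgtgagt
THBS2: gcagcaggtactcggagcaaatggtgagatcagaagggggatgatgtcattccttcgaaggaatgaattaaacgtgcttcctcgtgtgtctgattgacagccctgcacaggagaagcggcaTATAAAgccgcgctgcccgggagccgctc
In the 250 bases before the start, TGANTCA was found in 2 of 42 member promoters (4.76%) in 540 of the 10560 promoters of measured genes (5.11%) and in 1801 of all 27305 promoters of the table (6.6%). TATAAA was found in 9 of the 42 (21.4%), in 863 of the 10560 (8.17%) and in 3040 of the 27305 (11.1%). In MMP10 the AP-1 match began 67 bases and the TATA match 31 bases before the start, in MMP20 112 and 72 bases before it. The TATA match of THBS2 began 29 bases and that of MMP8 110 bases before the start. These are matches of letters and were not tested for binding.

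All values below are log2 intensities or differences between them, and a gene is called changed at an adjusted p under 0.05 (limma, Benjamini-Hochberg over all 14580 genes). Probe sets differ in their response to RNA, so levels are compared between arrays and never between genes. Groups whose arrays did not overlap were common. Against DMSO this held, either way, for 39.9% of all genes in DT, 32.3% in E and 41.2% in DTE. It held for 31.7% in DTE against DT and 39.6% in DTE against E. Array medians averaged 4.68 under DMSO, 4.48 under DT, 4.88 under E and 4.66 under DTE, and the median change over all genes was -0.17 for DT, 0.07 for E and -0.11 for DTE against DMSO. Changes are therefore also given after quantile normalization, which removes this shift. All 7 measured melanocytic markers lay at or above the lower quartile of genes in every group, with a summed linear intensity of 1658 to 1720 under DMSO, 2761 to 3210 under DT, 1493 to 1652 under E and 1777 to 1909 under DTE. The markers did not share 1 course. Against DMSO 4 were called higher in DT (3.23% of all genes) and 3 lower in E (3.54%). In DTE 3 were called higher and 1 lower (9.64% and 22.5%). After quantile normalization these counts were 6, 3, 3 and 0, beside 8.55%, 8.45% and 14.2% each way. In bulk RNA, fewer cells of a type and less RNA per cell cannot be told apart. Of the 56 members, 41 lay at or above that quartile in every group and 9 below it in every group. Such low values were not shown to exceed background.

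Under dabrafenib and trametinib the collagenase genes MMP1 and MMP13 fell furthest among the members, 4.67-fold and 5.49-fold, followed by THBS2, which encodes a matricellular thrombospondin, 4.03-fold. MMP16, encoding a membrane-anchored MMP, and the inhibitor genes TIMP3 and TIMP1 also fell more than 2-fold. TIMP2 and THBS3 rose, by 0.41 and 0.40 on the log2 scale. In all, 16 of 56 members fell and 2 rose, beside 24.1% of all genes falling and 3.23% rising. As deposited, the share of members that fell (28.6%) was thus near the background. Of the members, 6 were called with at least a 2-fold change, 10.7% beside 3.19% of all genes. That number was 3 (5.36%) after quantile normalization and 5 (8.93%) after median centring, where the share over all genes was not counted. After quantile normalization 10 members fell, 17.9% beside 7.86% of all genes, and 4 rose, 7.14% beside 8.55%. After median centring 14 fell, 25% beside 12%, and 5 rose, 8.93% beside 8.08%. The number that rose was 4 without DMSO replicate 2 and 1 without DMSO replicate 3, DT replicate 1 or DT replicate 3. The median change over the members was -0.14, beside -0.17 over all genes.

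MMP1, the interstitial collagenase, stood at 10.80, 10.78 and 10.76 under DMSO, 8.53, 8.58 and 8.56 under DT, 11.20, 11.34 and 11.30 under E and 9.02, 8.90 and 9.07 under DTE. The DT and DTE arrays all lay below the DMSO and E arrays. The change in DT was -2.22 (SE 0.11, adjusted p = 5.48e-11), or -1.93 when quantile-normalized. MMP13, collagenase 3, stood at 5.32, 5.27 and 5.48 under DMSO, 2.98, 2.99 and 2.73 under DT, 6.70, 6.57 and 6.67 under E and 3.32, 3.76 and 4.46 under DTE, so that no array of one group overlapped another group. It fell by 2.46 (SE 0.20, adjusted p = 3.97e-08). Its DT mean, 2.90 ± 0.14 (SD, n = 3), lay just under the DT lower quartile of genes (2.91), so the size of this fall is uncertain. MMP8, the neutrophil collagenase gene, stood at 9.80, 9.95 and 9.70 under DMSO, 8.81, 9.11 and 9.03 under DT, 9.59, 9.15 and 9.42 under E and 8.80, 8.66 and 9.06 under DTE and fell in DT by 0.83 (SE 0.14, adjusted p = 0.000294; -0.48 when quantile-normalized). DMSO arrays lay above all others in MMP8.

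The membrane-anchored MMP genes did not share 1 course. MMP16 stood at 8.69, 8.78 and 8.67 under DMSO, 7.42, 7.54 and 7.44 under DT, 9.15, 9.07 and 9.06 under E and 8.46, 8.56 and 8.61 under DTE and fell by 1.25 in DT (adjusted p = 1.21e-07; -0.86 when quantile-normalized). MMP14, which encodes MT1-MMP, a collagenase of the cell surface, stood at 9.05, 9.06 and 8.94 under DMSO, 8.30, 8.52 and 8.35 under DT, 8.71, 8.60 and 8.64 under E and 7.57, 7.66 and 7.64 under DTE. It fell by 0.63 (adjusted p = 0.000394), a call lost after quantile normalization (-0.25, adjusted p = 0.0593). MMP17, another membrane-type MMP gene, fell by 0.47, and that call was lost after quantile normalization (-0.16) and without DMSO replicate 1, DMSO replicate 2 or DT replicate 3 (adjusted p = 0.0533 to 0.0611). MMP15, which encodes MT2-MMP, differed by 0.31 (adjusted p = 0.089) as deposited and was called higher after quantile normalization (0.65, adjusted p = 0.0025). MMP23B fell by 0.42, a call lost after quantile normalization (-0.27) and without DMSO replicate 1, DMSO replicate 2, DT replicate 1 or DT replicate 3 (adjusted p = 0.0548 to 0.221). MMP23A is a near-identical copy of it, and which copy each probe set detects was not tested.

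The inhibitors split. TIMP1 stood at 9.57, 9.48 and 9.60 under DMSO, 8.44, 8.59 and 8.35 under DT, 9.60, 9.43 and 9.75 under E and 8.52, 8.53 and 8.44 under DTE and fell by 1.09 (SE 0.12, adjusted p = 2.07e-06). TIMP3, the inhibitor that is bound to the matrix, stood at 9.97, 9.94 and 9.63 under DMSO, 8.61, 8.70 and 8.61 under DT, 10.17, 10.01 and 10.12 under E and 9.15, 9.11 and 9.06 under DTE and fell by 1.21 (adjusted p = 5.6e-07). TIMP2, which with MMP14 takes part in activating the gelatinase proMMP2, stood at 9.10, 9.15 and 9.15 under DMSO, 9.45, 9.61 and 9.57 under DT, 9.27, 9.30 and 9.29 under E and 9.20, 9.12 and 9.12 under DTE. In TIMP2 the DT arrays were the highest, and the rise of 0.41 (SE 0.11, adjusted p = 0.00717) became 0.76 when quantile-normalized. TIMP1 and TIMP3 changed by -0.72 and -0.86 on that scale, so the opposite signs did not depend on it. TIMP4 lay near the lower quartile of genes in each group, with means of 2.92 to 3.04, and was not called (-0.01, adjusted p = 0.968).

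**Figure D1:**
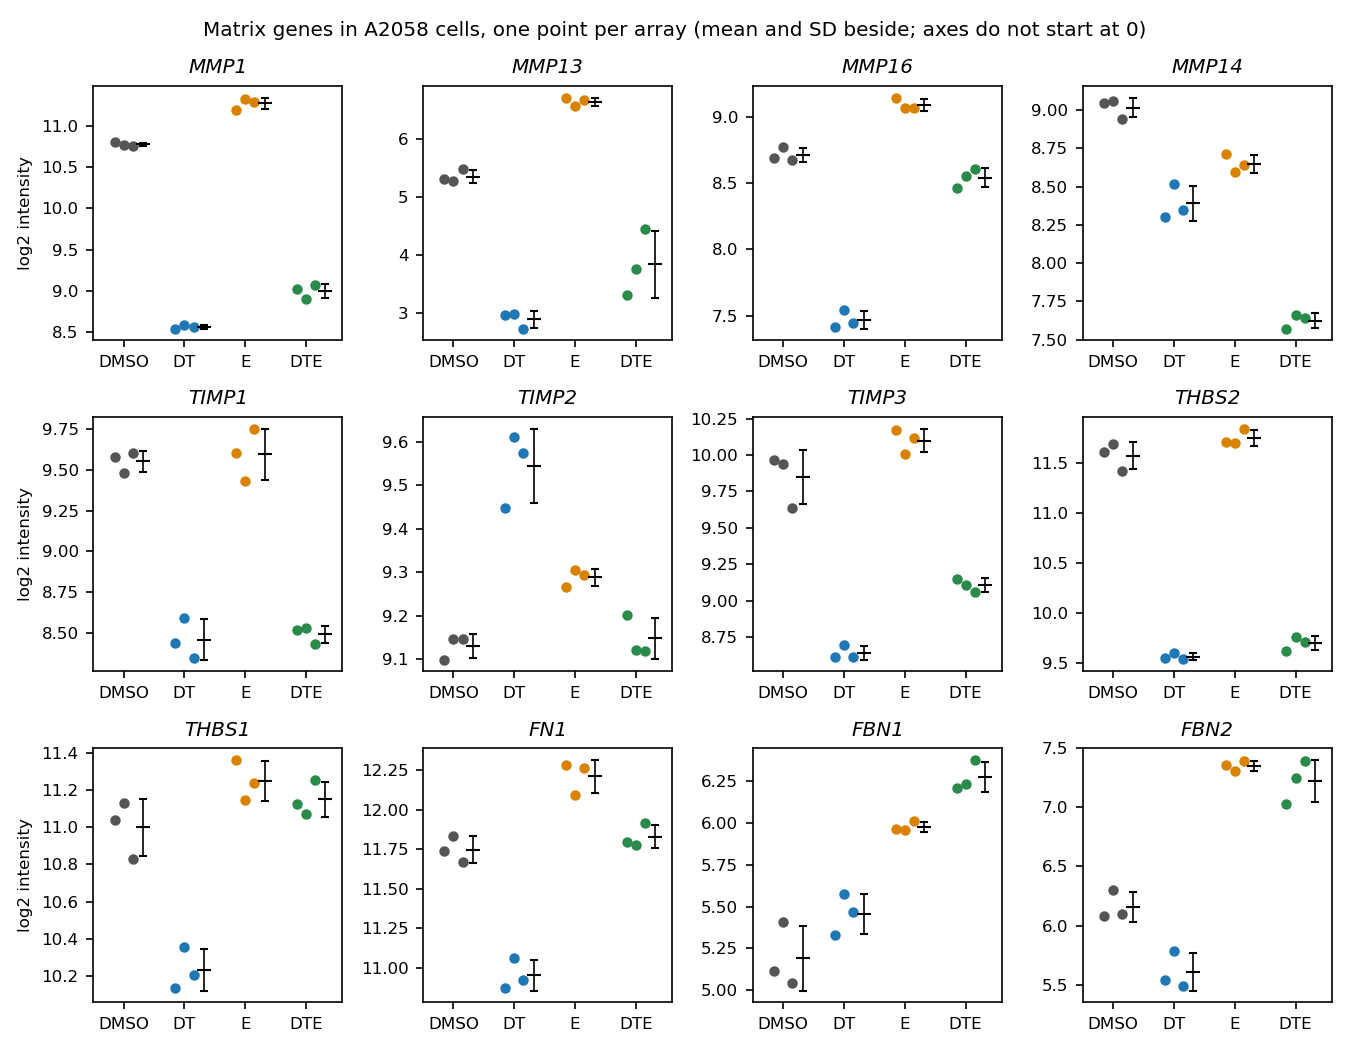
Log2 intensity (vertical axis) of 12 matrix genes in the 12 arrays, by treatment group (horizontal axis): points are arrays, and the bar beside them gives the mean and SD over 3 arrays. MMP1 lay at 8.53 to 8.58 in DT against 10.76 to 10.80 in DMSO, FN1 and THBS1 were lowest in DT, TIMP2 highest in DT, and MMP14 lowest in DTE.

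Among the structural and matricellular genes, THBS2 stood at 11.61, 11.69 and 11.43 under DMSO, 9.56, 9.60 and 9.54 under DT, 11.72, 11.71 and 11.85 under E and 9.63, 9.76 and 9.71 under DTE and fell by 2.01 (SE 0.11, adjusted p = 3.66e-10; -1.72 when quantile-normalized). THBS1, the thrombospondin that activates latent TGF-beta, stood at 11.04, 11.13 and 10.83 under DMSO, 10.14, 10.36 and 10.20 under DT, 11.36, 11.15 and 11.24 under E and 11.12, 11.07 and 11.25 under DTE and fell by 0.77 in DT (adjusted p = 0.000141; -0.51 when quantile-normalized). THBS3 rose by 0.40 (adjusted p = 0.0156; 0.60 when quantile-normalized), a call lost without DMSO replicate 3, DT replicate 1 or DT replicate 3 (adjusted p = 0.0609 to 0.0678). FN1, which encodes fibronectin, stood at 11.74, 11.83 and 11.67 under DMSO, 10.87, 11.06 and 10.93 under DT, 12.28, 12.09 and 12.26 under E and 11.79, 11.78 and 11.91 under DTE and fell by 0.79 in DT (SE 0.11, adjusted p = 5.13e-05; -0.72 when quantile-normalized). Fibronectin was lowest in the 3 DT arrays.

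Of the 4 lysyl oxidase genes, LOXL3 and LOXL2 fell in DT. LOXL3 stood at 7.25, 7.21 and 6.86 under DMSO, 6.09, 6.35 and 6.08 under DT, 7.24, 7.12 and 6.91 under E and 6.34, 6.45 and 6.39 under DTE. It fell by 0.93 (adjusted p = 5.25e-05; -0.56 when quantile-normalized), and the DT and DTE arrays lay below the DMSO and E arrays. LOXL2 fell by 0.60 (adjusted p = 0.00409) as deposited and differed by -0.23 (adjusted p = 0.321) after quantile normalization. LOX differed by -0.38 (adjusted p = 0.0907) and LOXL1 by 0.13 (adjusted p = 0.642). FBLN5, an elastic fibre protein gene, and FBN2 fell by 0.60 and 0.55, and both calls were lost after quantile normalization (-0.23 and -0.24).

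With entinostat alone more members rose than fell. FBN2, encoding fibrillin-2 of the microfibrils, rose 2.29-fold, and the protease genes MMP12 and MMP13 rose 2.48-fold and 2.44-fold. FBN1, encoding fibrillin-1, MMP15, ADAMTSL5 and MMP10 rose by 0.63 to 0.79 on the log2 scale. Of 56 members 12 rose and 2 fell, beside 12.5% of all genes rising and 3.54% falling. After quantile normalization 9 rose (9.67% of all genes) and 2 fell (8.45%), and after median centring 7 rose (7.53%) and 2 fell (16.3%). With at least a 2-fold change 3 members were called (5.36%), beside 2.43% of all genes. That number was 3 (5.36%) after quantile normalization and 2 (3.57%) after median centring, where the share over all genes was not counted. The median change was 0.17 over the members and 0.07 over all genes, and -0.03 and -0.13 after median centring.

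FBN2 stood at 6.08, 6.30 and 6.10 under DMSO, 5.54, 5.79 and 5.49 under DT, 7.36, 7.31 and 7.39 under E and 7.03, 7.24 and 7.39 under DTE. Its 6 arrays with entinostat lay above the 6 without, and the rise in E was 1.19 (SE 0.13, adjusted p = 3.3e-06; 1.12 when quantile-normalized). FBN1 stood at 5.12, 5.41 and 5.04 under DMSO, 5.33, 5.57 and 5.47 under DT, 5.96, 5.96 and 6.01 under E and 6.21, 6.23 and 6.38 under DTE and rose by 0.79 (adjusted p = 0.000183). Entinostat arrays were again all higher than those without it. FN1 rose by 0.46 (adjusted p = 0.00814), and quantile normalization left a rise of 0.29 (adjusted p = 0.0394). Median centring ended that call (0.27, adjusted p = 0.061). FBLN2, the fibulin-2 gene, rose by 0.50 (adjusted p = 0.0201) as deposited. That call was lost after quantile normalization (0.29) and without DMSO replicate 1, E replicate 1 or E replicate 2 (adjusted p = 0.0646 to 0.137).

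Of 6 fibroblast markers listed, 3 were measured (THY1, LUM and DCN). Their summed linear intensity ranged from 166.2 to 193.2 under DMSO, 184.8 to 246.0 under DT, 300.8 to 358.6 under E and 439.1 to 600.5 under DTE, with DCN below the lower quartile of genes in every group. LUM made up most of this sum, and the markers did not all follow 1 course. LUM rose by 0.93 in E and 1.63 in DTE against DMSO, whereas THY1 rose by 0.69 in E, differed by 0.10 in DTE (adjusted p = 0.693) and was lower in DTE than in E by 0.60 as deposited (adjusted p = 0.0117), but not called after quantile normalization (-0.34). Their part in the fibrillin and fibronectin values was not tested. In the same order of groups, the sums over 3 endothelial markers ranged from 46.8 to 51.4, 21.2 to 22.8, 84.1 to 100.2 and 45.1 to 52.8, with VWF below the lower quartile throughout. KDR changed most among them, with log2 means of 4.97, 3.08, 6.16 and 4.98, beside 3.45, 2.98, 3.67 and 3.29 for ERG. The 6 epithelial markers summed to 94.4 to 123, 75.6 to 88.3, 132 to 156 and 91.9 to 105, and CD14, the 1 blood marker measured, lay below the lower quartile in every group.

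Among the proteases, MMP12, the macrophage elastase gene, stood at 2.31, 2.43 and 2.26 under DMSO, 2.04, 2.19 and 1.95 under DT, 3.83, 3.49 and 3.62 under E and 2.82, 2.46 and 2.78 under DTE. The 3 E arrays were the highest, and the rise was 1.31 (SE 0.13, adjusted p = 1.6e-06). MMP10, the stromelysin-2 gene whose promoter is shown above, stood at 2.06, 2.17 and 2.34 under DMSO, 2.16, 2.07 and 1.96 under DT, 2.69, 2.77 and 3.00 under E and 3.12, 2.85 and 2.68 under DTE and rose by 0.63 (adjusted p = 0.00302). Both stood below the lower quartile of genes in DMSO (2.98), and MMP10 did so in every group, so the sizes of their rises are uncertain. MMP13 rose by 1.29 (SE 0.20, adjusted p = 0.000128) and MMP1 by 0.50 (adjusted p = 0.00319). MMP15 rose by 0.72 (adjusted p = 0.000747). MMP25, a leukocyte membrane-type MMP gene, rose by 0.40 (adjusted p = 0.0193), a call lost after quantile normalization (0.26) and without DMSO replicate 2 or E replicate 2 (adjusted p = 0.0569 and 0.0991). Its other probe set, with means of 2.76 in DMSO and 2.99 in E, lay below the lower quartile.

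MMP16 rose by 0.38 (adjusted p = 0.0214), a call lost after median centring (0.18) and without DMSO replicate 1, DMSO replicate 3, E replicate 1 or E replicate 3 (adjusted p = 0.0545 to 0.0771). ADAMTSL5, which encodes an ADAMTS-like protein without a protease domain, stood at 4.77, 4.16 and 4.45 under DMSO, 4.66, 4.49 and 4.35 under DT, 5.28, 5.01 and 5.11 under E and 5.11, 4.86 and 5.18 under DTE. It rose by 0.67 (adjusted p = 0.00439), a call lost after quantile normalization (0.46, adjusted p = 0.0741). The 2 members that fell were MMP8 by 0.43 and MMP14 by 0.37 (adjusted p = 0.0469 and 0.0297). MMP14 lost its call without DMSO replicate 1, DMSO replicate 2 or any E array (adjusted p = 0.0507 to 0.0991). MMP8 lost its call without any DMSO array, DT replicate 3, DTE replicate 1, E replicate 2 or E replicate 3 (adjusted p = 0.0515 to 0.212). The MMP8 call was also lost in limma with a replicate block (adjusted p = 0.0537) and with only the compared groups fitted (adjusted p = 0.0527). Both genes were called after quantile normalization (-0.40 and -0.37). The count of members that fell was 0 without DMSO replicate 1, DMSO replicate 2, E replicate 2 or E replicate 3 and 1 without DMSO replicate 3, DT replicate 3, DTE replicate 1 or E replicate 1. TIMP1 differed from DMSO by 0.04 (95% interval -0.21 to 0.29), THBS2 by 0.18 (adjusted p = 0.338) and LOXL3 by -0.01 (adjusted p = 0.966).

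**Figure D2:**
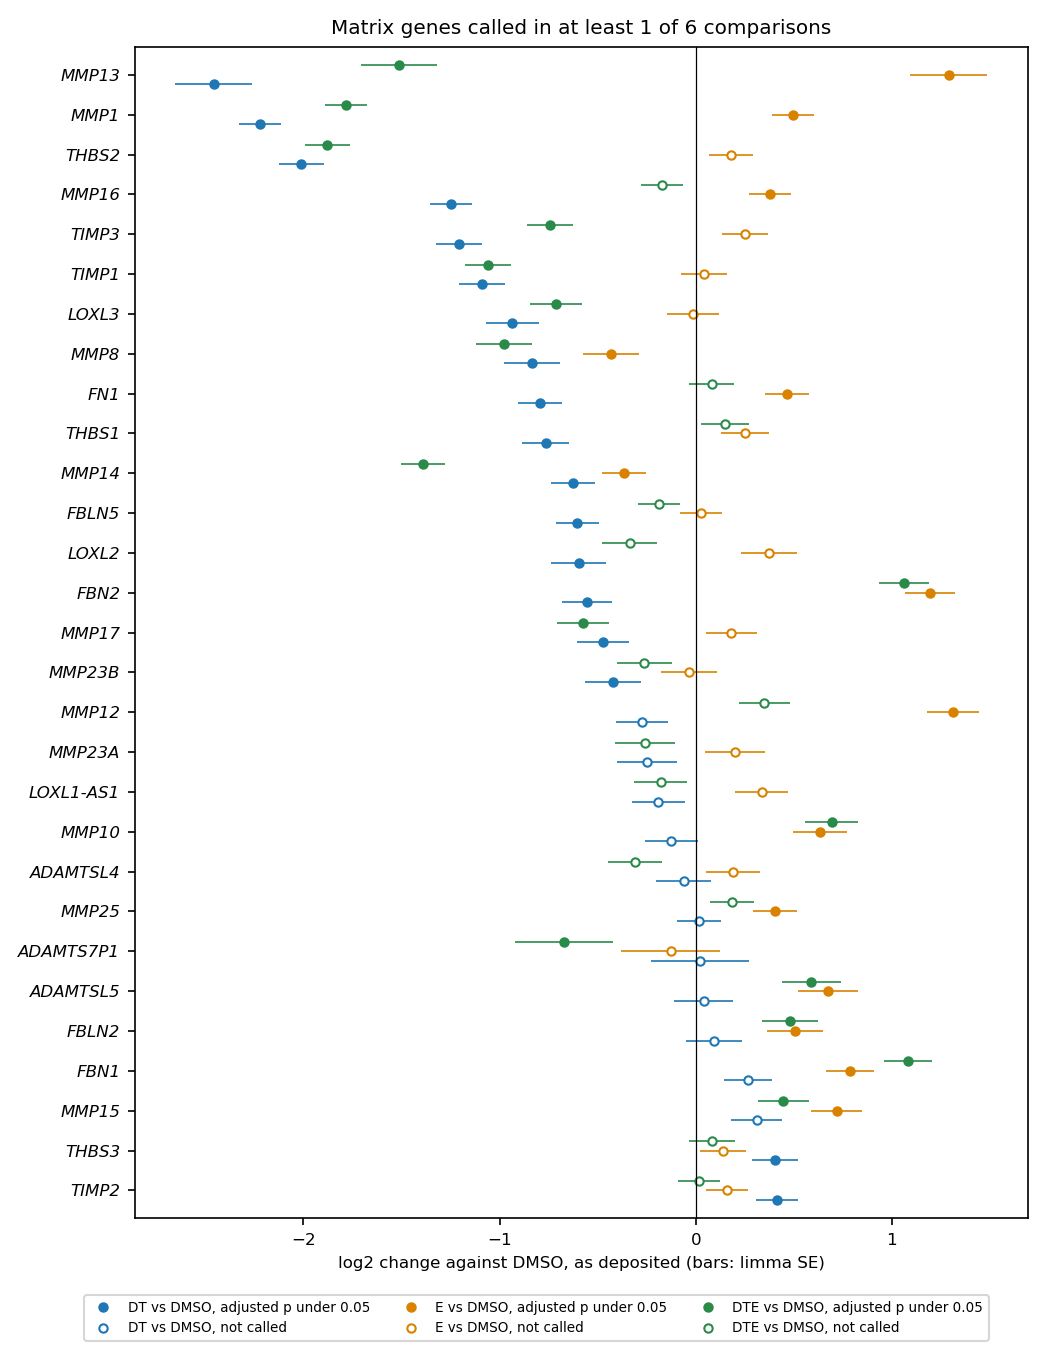
Log2 change against DMSO (horizontal axis) of the 29 matrix genes called in at least 1 of the 6 comparisons (vertical axis), for DT, E and DTE, with the limma standard error as bars and filled points for an adjusted p under 0.05. MMP13, MMP1 and THBS2 lie furthest left in DT, at -2.46, -2.22 and -2.01, while FBN2 and FBN1 lie to the right in E and DTE.

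With all 3 drugs, the falls of MMP1, THBS2, MMP13 and TIMP1 and the rises of the fibrillins were both present. MMP14 reached its lowest values, 2.62-fold below DMSO. In all 6 members rose and 10 fell, beside 9.64% and 22.5% of all genes. After quantile normalization 10 rose and 10 fell, beside 14.2% of all genes each way, and after median centring 7 rose and 9 fell, beside 11% and 23.1%. MMP12, MMP25 and the antisense gene LOXL2-AS1 were among those called after quantile normalization but not as deposited. With at least a 2-fold change 7 members were called (12.5%), beside 4.16% of all genes. That number was 6 (10.7%) after quantile normalization and 7 (12.5%) after median centring, where the share over all genes was not counted. The median change over the members was -0.02, beside -0.11 over all genes.

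THBS2 fell by 1.88 (SE 0.11, adjusted p = 1.37e-09), MMP1 by 1.78 (adjusted p = 1.37e-09), MMP13 by 1.51 (adjusted p = 1.22e-05) and MMP14 by 1.39 (adjusted p = 3.95e-08). MMP13 varied more among the DTE arrays (3.32, 3.76 and 4.46) than in the other groups. TIMP1 fell by 1.06, MMP8 by 0.98, TIMP3 by 0.74, LOXL3 by 0.71 and MMP17 by 0.58, and each was also called after quantile normalization. The pseudogene ADAMTS7P1 fell by 0.67 (adjusted p = 0.0487). Its arrays overlapped, and the call was lost after quantile normalization (adjusted p = 0.0778) and without DMSO replicate 1, DMSO replicate 2, DT replicate 1, DT replicate 2, DTE replicate 1, DTE replicate 2 or E replicate 1 (adjusted p = 0.051 to 0.245).

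FBN1 rose by 1.08 (SE 0.12, adjusted p = 3.14e-06) and FBN2 by 1.06 (SE 0.13, adjusted p = 5.41e-06), or 1.23 and 1.30 when quantile-normalized. MMP10 rose by 0.69 and ADAMTSL5 by 0.59 (adjusted p = 0.000695 and 0.00579). FBLN2 rose by 0.48 and MMP15 by 0.45, and both calls were lost without DMSO replicate 1 or DTE replicate 2 (adjusted p = 0.105 and 0.08 for FBLN2, 0.0751 and 0.0821 for MMP15). FN1, THBS1 and MMP16, which fell in DT, were not called in DTE against DMSO. Their differences were 0.08 (95% interval -0.16 to 0.32), 0.15 (-0.11 to 0.40) and -0.17 (-0.40 to 0.05), and none of these intervals reached the gene's fall in DT. THBS1 was called higher after quantile normalization (0.31, adjusted p = 0.0272), as was TIMP2 (0.32 against 0.02 as deposited).

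DTE against DT compares cells given the kinase inhibitors with and without entinostat over the same 24 h. Of 56 members 12 rose and 2 fell, beside 13.8% and 5.09% of all genes, and after quantile normalization 11 rose and 5 fell, beside 12.2% and 12% of all genes. After median centring 8 rose and 5 fell, beside 9.36% and 15.4%. The members called lower after quantile normalization but not as deposited were ADAMTS7P1, ADAMTSL2 and THBS3. FBN2 rose 3.06-fold (1.62, SE 0.13, adjusted p = 7.87e-08) and MMP16 2.11-fold (1.07, adjusted p = 1.12e-06). THBS1, FN1 and FBN1 rose by 0.91, 0.87 and 0.82 (adjusted p = 2.54e-05, 2.03e-05 and 9.8e-05). MMP13, MMP10, MMP12, MMP1 and TIMP3 rose by 0.94, 0.82, 0.62, 0.44 and 0.46. MMP10 and MMP12 lay below the lower quartile of genes in both DT and DTE, and MMP13 did so in DT. The sizes of the rises of MMP10, MMP12 and MMP13 are therefore uncertain. The calls of MMP1 and TIMP3 were lost after median centring (0.26 and 0.29). FBLN5 rose by 0.42, a call also lost after median centring (0.24). ADAMTSL5 rose by 0.55, a call lost after quantile normalization (0.40) and without DT replicate 3 or DTE replicate 3 (adjusted p = 0.0749 and 0.0681).

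The members that fell in DTE against DT were MMP14, by 0.76 (SE 0.11, adjusted p = 6.51e-05), and TIMP2, by 0.40 (adjusted p = 0.0123). All 3 DTE arrays lay below all 3 DT arrays in both genes, a separation, either way, that 31.7% of all genes showed. Without DT replicate 3 the TIMP2 call was lost (-0.38, adjusted p = 0.051), leaving 1 member that fell. TIMP1 and THBS2 differed by 0.03 (95% interval -0.22 to 0.28) and 0.13 (-0.11 to 0.37).

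DTE against E compares cells given entinostat with and without the kinase inhibitors over the same 24 h. Here 16 of 56 members fell and 0 rose, beside 22.4% and 2.08% of all genes, and after quantile normalization 9 fell and 1 rose, beside 5.84% and 6.99%. After median centring 11 fell and 1 rose, beside 6.91% and 6.71%. At an unadjusted p under 0.05, limma called 1 member higher in DTE than in E as deposited. MMP13 fell by 2.80 (SE 0.20, adjusted p = 1.34e-08), MMP1 by 2.28 (adjusted p = 4.53e-11) and THBS2 by 2.06 (adjusted p = 4.17e-10). TIMP1, MMP14, TIMP3 and MMP12 fell by 1.10, 1.02, 0.99 and 0.96. MMP17 and LOXL3 fell by 0.76 and 0.70, and the calls of all these 9 genes held after quantile normalization. The falls of LOXL2 (-0.71), MMP16 (-0.55), MMP8 (-0.55), LOXL1-AS1 (-0.52), ADAMTSL4 (-0.50), MMP23A (-0.46) and FN1 (-0.38) were called as deposited but not after quantile normalization.

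The calls of ADAMTSL4 without DTE replicate 1 (adjusted p = 0.0716) and of MMP8 without DTE replicate 2 or E replicate 1 (adjusted p = 0.0523 and 0.055) in DTE against E were also lost. So were those of FN1 without DTE replicate 1, DTE replicate 2, E replicate 1 or E replicate 3 (adjusted p = 0.0621 to 0.0746) and of MMP23A without DTE replicate 1, DTE replicate 3, E replicate 1 or E replicate 2 (adjusted p = 0.0792 to 0.132). FBN1 was called higher after quantile normalization (0.60, adjusted p = 0.000295) against 0.30 (adjusted p = 0.0875) as deposited.

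**Figure D3:**
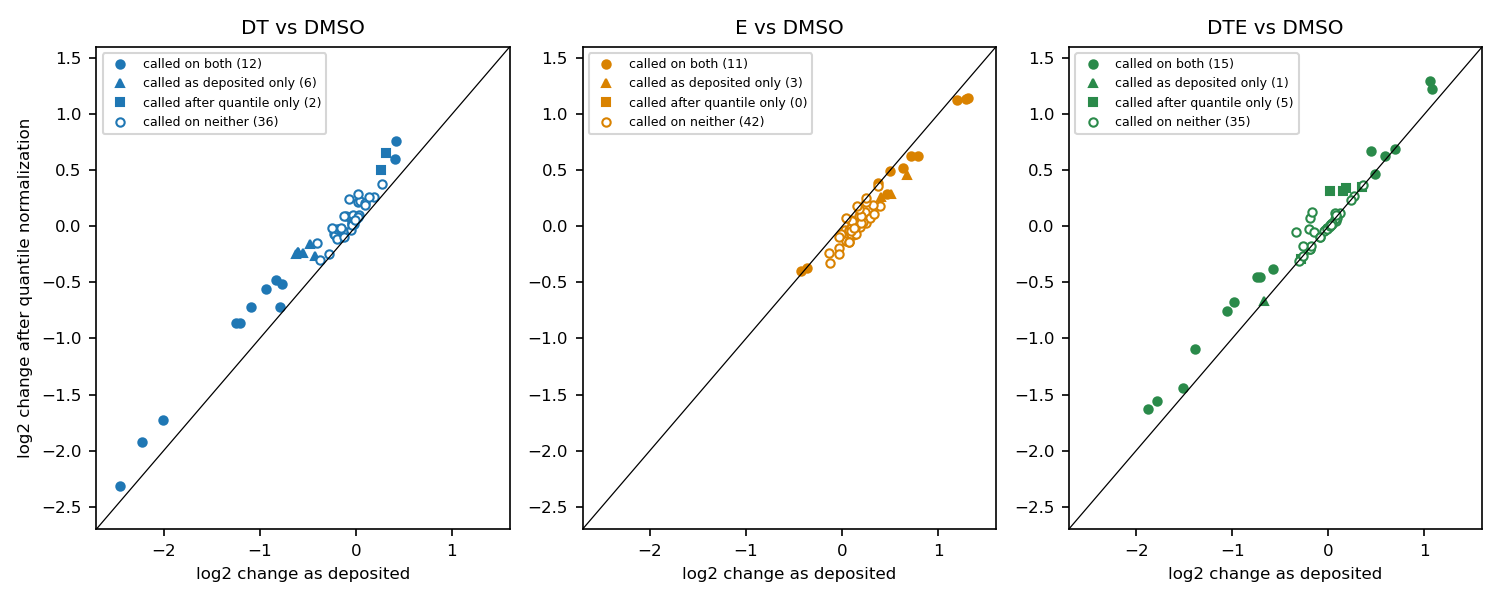
Log2 change of the 56 matrix genes as deposited (horizontal axis) and after quantile normalization (vertical axis) in DT, E and DTE against DMSO; symbols show on which scale a gene was called and the line marks equal values. In DT most points lie above the line: 16 members fell as deposited and 10 after quantile normalization.

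An interaction contrast (DTE - DT - E + DMSO, called the departure from additivity) tested whether entinostat acted differently with and without the kinase inhibitors. Among the members 1 was called, beside 1.04% of all genes (0.562% higher and 0.473% lower). MMP16 departed by 0.70 (SE 0.15, adjusted p = 0.0341; 0.60 when quantile-normalized, adjusted p = 0.0177): entinostat raised it by 0.38 without and by 1.07 with the kinase inhibitors. Leaving out any array other than DT replicate 2 or DTE replicate 1 ended this call, with departures of 0.66 to 0.72 and adjusted p-values of 0.0588 to 0.0927. THBS1 and TIMP2 were called after quantile normalization but not as deposited (0.61 and -0.63, adjusted p = 0.0374 and 0.0274), beside 2.15% of all genes (1.19% higher and 0.96% lower). As deposited they departed by 0.67 and -0.56 (adjusted p = 0.0735 and 0.0914). After median centring 2 members were called higher, beside 1.1% of all genes (0.734% lower). MMP12 departed by -0.69 (adjusted p = 0.0933). For MMP1, MMP13, TIMP1 and THBS2 the departures were -0.06, -0.35, -0.01 and -0.05, with 95% intervals of -0.38 to 0.26, -0.93 to 0.23, -0.36 to 0.34 and -0.38 to 0.29.

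Of the measured MMP genes, 7 lie in a cluster on chromosome 11 in the RefSeq order MMP20, MMP27, MMP8, MMP10, MMP1, MMP12 and MMP13. The cluster also holds MMP7, before MMP20, and MMP3, between MMP1 and MMP12, which were not analysed here. In DT, MMP8, MMP1 and MMP13 fell and the other 4 were not called, with values of -0.27 to 0.04. Those 4 lay below the lower quartile of genes in DMSO already, where they were not shown to exceed background, so no absence of a fall is read from them. In E, MMP10, MMP1, MMP12 and MMP13 rose, and MMP8 was called lower, a call lost without any 1 of the 7 arrays named above. MMP20, an enamel protease gene, and MMP27 were not called in any of the 6 comparisons and lay below that quartile in every group. MMP20, like MMP10, holds an AP-1 and a TATA match, at other distances from its start. MMP20 differed by 0.12 in E (adjusted p = 0.684), where MMP10 rose by 0.63. Both genes lay below that quartile in every group, and the part of the motifs in these values was not tested.

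**Figure D4:**
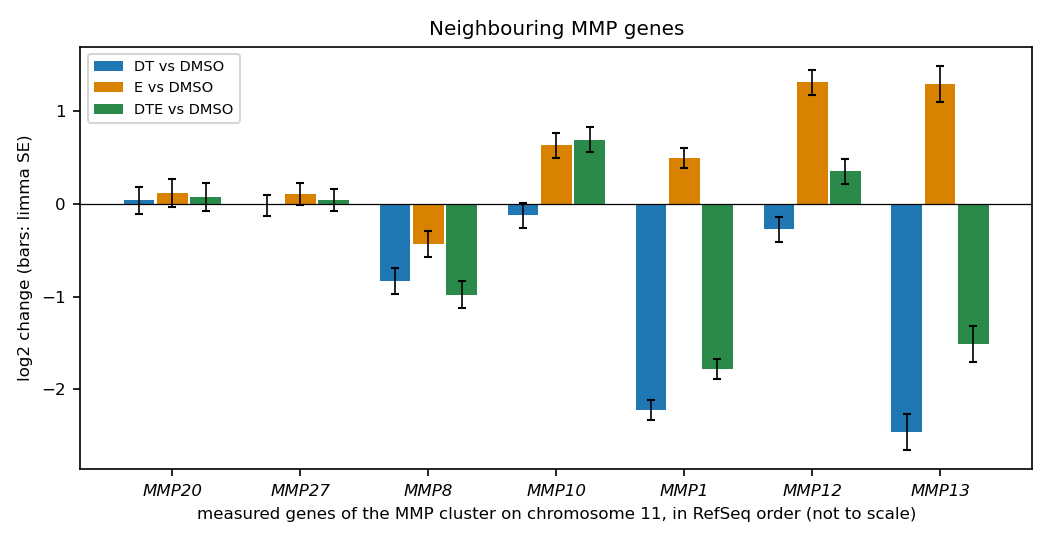
Log2 change against DMSO (vertical axis, bars with the limma standard error) of the 7 measured MMP genes of the chromosome 11 cluster in RefSeq order (horizontal axis, not to scale) for DT, E and DTE. MMP1 and MMP13 fall in DT and DTE, MMP12 and MMP13 rise in E, and MMP20 and MMP27 stay between -0.02 and 0.12.

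The remaining 27 members were called in none of the 6 comparisons. Among them were COL26A1, with means of 4.25 ± 0.17 under DMSO, 4.02 ± 0.07 under DT, 4.50 ± 0.22 under E and 4.23 ± 0.18 under DTE (SD, n = 3), and LOX. LOX, the founding lysyl oxidase gene, stood at 3.15, 3.70 and 3.22 under DMSO, 3.14, 2.99 and 2.80 under DT, 3.43, 3.66 and 3.63 under E and 3.18, 3.40 and 2.90 under DTE, changes of -0.38, 0.22 and -0.19 against DMSO. The integrin-binding genes ITGB1BP1, ITGB1BP2 and ITGB3BP differed from DMSO by -0.07, -0.15 and -0.40 in DT and by 0.07, 0.18 and 0.14 in E. MMP11, MMP19, MMP21, MMP24, MMP26 and MMP28, SPARCL1, THBS4, FBLN1, FBLN7, FBN3, LOXL1, ADAMTSL1, ADAMTSL2 and ADAMTSL3 were also uncalled as deposited. Which strand the probe sets of the antisense genes ITGB2-AS1, LOXL1-AS1, LOXL2-AS1 and ADAMTS9-AS2 detect was not tested.

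Genes that work with these members were counted from lists of non-members. Over all genes, 3.23% rose and 24.1% fell in DT, 12.5% and 3.54% in E, and 9.64% and 22.5% in DTE as deposited. After quantile normalization the shares were 8.55% and 7.86% in DT, 9.67% and 8.45% in E, and 14.2% each way in DTE. Of 19 focal adhesion genes 11 fell in DT (5, with 1 rising, after quantile normalization; median -0.39 beside -0.17 over all genes), among them PXN, the paxillin gene, by 1.42 and PTK2, encoding focal adhesion kinase, by 1.03. In E, 5 of the 19 rose and 1 fell (4 and 2 after quantile normalization), with VCL, the vinculin gene, rising by 1.03. In DTE 2 rose and 12 fell (2 and 7 after quantile normalization). Of 20 plasminogen system and pericellular protease genes 1 rose and 7 fell in DT, 2 rose in E, and 2 rose and 5 fell in DTE. After quantile normalization 2 rose and 3 fell in DT, 4 rose in E, and 4 rose and 3 fell in DTE, so the balance in DTE turned with the scale. CTSK, the cathepsin K gene, rose by 1.33 and ADAM19 fell by 2.80 in DT, and RECK, a membrane inhibitor of MMPs, rose by 0.87 in E and 1.19 in DTE.

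Of 48 other matrix glycoprotein and proteoglycan genes 5 rose and 17 fell in DT (11 and 10 after quantile normalization), 17 rose and 1 fell in E (16 and 1), and 15 rose and 10 fell in DTE (16 and 8). MATN2, the matrilin-2 gene, rose by 1.34 in DT, MATN3 rose by 1.22 in E, and CCN5 and LUM rose by 1.67 and 1.63 in DTE. CEMIP and TNC lay lower in DT and DTE. The log2 means of CEMIP were 8.78 under DMSO, 3.74 under DT, 8.52 under E and 4.09 under DTE. Those of TNC were 10.20, 8.40, 10.40 and 9.21 in the same order. LUM was also on the fibroblast marker list above. Of 10 collagen-modifying enzyme genes 3 fell in DT, 1 rose in E, and 2 rose and 5 fell in DTE as deposited. After quantile normalization 1 rose in DT, 1 in E and 2 in DTE, and all the falls in DT and DTE lost their calls. PCOLCE2, an enhancer of procollagen processing, rose by 1.03 in E. Of 8 AP-1 subunit genes 3 fell in DT, 3 rose and 1 fell in E, and 2 rose and 3 fell in DTE. After quantile normalization 1 fell in DT, 2 rose and 1 fell in E, and 4 rose and 2 fell in DTE, so here too the balance in DTE turned with the scale. FOSL1 fell by 4.04, 0.56 and 4.01 in DT, E and DTE, whereas JUN rose by 0.78 in E and 0.84 in DTE.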

How the data were processed

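The authors deposited linear intensity values per probe set from 12 arrays. Per the submitters' processing notes, RMA and the Transcriptome Analysis Console were used. Versions, a further scaling and a genome build are not given in the sources used here. Medians over the 14580 genes differed between arrays. They cover only a part of the probe sets, so whether the deposited values were quantile-normalized cannot be read from them. Of 29396 probe sets 14748 had a gene symbol, which gave 14580 genes by the brightest probe set. Intensities were converted to log2 and used as deposited, with no filter on dim genes. limma 3.58.1 in R 4.3.3 fitted the 4 group means over all arrays (8 residual degrees of freedom, default eBayes), and the scripts were tested on simulated data. The 6 contrasts were tested, with Benjamini-Hochberg adjustment over all genes and a threshold of 0.05.

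The groups came from the titles. The number of arrays limits the precision. Alternatives were quantile normalization, median centring, log2(intensity + 8), leaving out genes below the lower quartile, averaging probe sets, a variance trend, a replicate block, fitting the compared groups alone, and leaving out each array. Named were members called with at least a 2-fold change in any contrast, the largest called rise and fall per role, a fixed set, and, outside this rule and chosen after their values were seen, every other member with a call and several uncalled members. Of the other lists at most 2 genes each way were named. The members and lists were chosen with earlier results of these data known, and roles of members outside the lists were assigned after the values were seen. Sequences were read from RefSeq tables.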

Additional observations from a re-analysis of the deposited data

Results flagged for a closer look

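MMP16 departed from additivity by 0.70 on the log2 scale, that is, the effect of entinostat differed between cells with and without dabrafenib and trametinib by a test of the difference itself (limma interaction contrast, adjusted p = 0.0341). With 12 arrays in the fit, all 3 DTE arrays lay above all 3 DT arrays, and all 3 E arrays lay above all 3 DMSO arrays. Such separation, either way, held for 31.7% of all genes in DTE against DT and 32.3% in E against DMSO. It concerns each comparison alone and is no test of the difference between them. The adjusted p ranged from 0.0588 to 0.0927 when any 1 of 10 arrays was left out. Groups of 3 arrays are too small to be tested for outlying arrays.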

How the results depend on the processing

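Of 79 calls of members over the 6 comparisons, 49 were kept in every alternative that tested the gene and 30 were lost in at least 1. Quantile normalization ended 18 calls and median centring 17, and 0 calls changed direction. After quantile normalization the members called higher numbered 4 in DT against DMSO, 10 in DTE against DMSO, 1 in DTE against E and 2 in the departure, and those called lower 10 in DT against DMSO, 5 in DTE against DT, 9 in DTE against E and 1 in the departure. After median centring the members called higher numbered 5 in DT and 7 in E against DMSO, 1 in DTE against E and 2 in the departure, and 5 fell in DTE against DT. With a pseudocount of 8, 1 member was higher in DTE against E, and the departure had 2 higher and 1 lower, as it had with a variance trend. Fitting only the groups compared left 1 member lower in E against DMSO. The cause of these differences was not tested.

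Leaving out 1 array gave 1 to 4 members higher and 14 to 16 lower in DT against DMSO, 10 to 13 higher and 0 to 2 lower in E, 5 to 8 higher and 9 to 11 lower in DTE, 11 to 13 higher and 1 to 3 lower in DTE against DT, 0 higher and 13 to 18 lower in DTE against E, and 0 to 1 higher and 0 lower in the departure. Arrays with the same replicate number correlated above 0.1 in 3 of 18 pairs (-0.097 to 0.172). Those with different numbers did so in 2 of 36 pairs (-0.166 to 0.172). These correlations do not settle whether the numbers pair the arrays, and the main fit used no pairing. With the replicate block, 1 member fell in E against DMSO, and 20 fell in DTE against E. Intensities carry no measure of background here, so changes measured below the lower quartile of genes have uncertain sizes.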
